A study of Homo sapiens with 36 samples.

Results

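MHC class I and class II antigen presentation was followed through 36 genes, taken by symbol and matched to Ensembl IDs with GENCODE, of the 58302 genes counted in each library. Of these, 19 belong to the class I pathway, 14 to the class II pathway, and 3 encode the RFX complex that serves both. The rule that chose them used their symbols, not expression values. The libraries came from JEKO, MINO and UPN-1, established human mantle cell lymphoma lines. Each line received GS716054, described in the labels as a KDM5 inhibitor, or its vehicle DMSO, and RNA was sequenced 24 h or 72 h later. These 12 groups held 3 replicates each, which the labels call biological; the labels name no allele and no dose. The comparisons asked how GS716054 changed each gene against DMSO in each line at each time, and how high the genes stood in DMSO.

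MHC class I molecules show peptides cut from proteins of the cell's own cytosol to CD8 T cells. The immunoproteasome makes these peptides, the TAP transporter carries them into the endoplasmic reticulum, and chaperones load them onto a heavy chain paired with beta-2-microglobulin. MHC class II molecules, which B cells carry, show peptides from ingested proteins to CD4 T cells, and their genes are switched on by the coactivator CIITA, which docks on the RFX complex, NF-Y and CREB at the promoter. KDM5 enzymes remove methyl groups from lysine 4 of histone H3, a mark of active promoters.

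The libraries held 8784815 to 14970876 reads in genes, with a median of 11926903, so that a count of 0 allows a level of up to 0.200 to 0.342 CPM, the read count scaled to the size of its library, counting error only. The library sizes behind CPM were adjusted by the trimmed mean of M values (TMM). A gene was called where edgeR gave an adjusted p under 0.05, adjusted over every gene in that fit, and effects are log2 fold changes of GS716054 over DMSO with their standard errors (SE). Libraries with the same replicate number varied together (every correlation over 0.1) in 5 of the 6 treatment comparisons, all but JEKO at 24 h. Calls from a fit that treats the number as a block within each time are therefore given where they differ. However, DMSO replicate 3 of MINO at 72 h correlated best with treated replicate 1, not with its own number. In MINO at 72 h, DMSO replicate 2 stood apart. It lay above both other DMSO libraries for 11 of 13 class II genes and 14 of 19 class I genes, with class II levels at a median of 2.22 times their mean. Of the class II genes, 13 of 14 passed the filter on low counts in every line. The gene that did not was IFI30, a lysosomal thiol reductase, with 0 to 10 counts per library and 42.5% of its exon length shared with a gene on the same strand. All 19 class I genes and the 3 RFX genes passed. In bulk RNA, fewer cells with a transcript and less of it per cell cannot be told apart. The identity of the lines was read from marker genes. The summed level of 6 B-cell markers was 1328 to 5203 CPM, and CCND1, the cyclin that marks mantle cell lymphoma, reached 3094 CPM. Markers of other cells summed to at most 32.0 CPM for T cells, 8.57 for monocytes, 3.52 for dendritic cells, 1.03 for NK cells and 11.9 for fibroblasts, and CD2, FCGR3A, CLEC10A and DCN had no read in any library. Those of plasma cells, which B cells turn into, summed to 143 to 591 CPM.

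Class II promoters are known for the X and Y boxes, read by the partners of CIITA, and the RefSeq sequence before the start is shown for 5 genes called higher in MINO with or without the block. They were picked after the sequences were seen, as the 4 class II genes that hold TGATGATG and HLA-DQB1, which does not; HLA-DQA1, HLA-DPB1, HLA-DOA and CD74, also called higher, do not hold it and are not shown (GRCh38.p14, 5′ to 3′ on the gene's strand). All lie on the minus strand of chromosome 6, within the MHC, and the stretches end at the start site or, where GENCODE places an exon, before it. Capitals mark CCAAT or its reverse complement ATTGG, the core of the Y box that NF-Y binds. They also mark TGACG, the core of a cyclic AMP response element, and TGATGATG, a stretch of the X box.
HLA-DMB, chr6:32941029-32941178: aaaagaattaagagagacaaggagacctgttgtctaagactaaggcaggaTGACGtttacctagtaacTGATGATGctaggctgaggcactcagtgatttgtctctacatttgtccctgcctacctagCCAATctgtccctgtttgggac
HLA-DMA, chr6:32953123-32953247: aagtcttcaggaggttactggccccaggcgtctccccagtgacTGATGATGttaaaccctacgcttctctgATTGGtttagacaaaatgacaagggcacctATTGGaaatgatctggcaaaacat
HLA-DOB, chr6:32817003-32817152: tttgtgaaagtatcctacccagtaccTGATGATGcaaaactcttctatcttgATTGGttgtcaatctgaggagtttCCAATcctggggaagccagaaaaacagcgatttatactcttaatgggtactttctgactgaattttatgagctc
HLA-DRB1, chr6:32589849-32589998: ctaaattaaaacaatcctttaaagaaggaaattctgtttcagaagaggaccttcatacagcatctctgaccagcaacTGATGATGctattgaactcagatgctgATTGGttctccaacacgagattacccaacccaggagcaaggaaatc
HLA-DQB1, chr6:32666685-32666807: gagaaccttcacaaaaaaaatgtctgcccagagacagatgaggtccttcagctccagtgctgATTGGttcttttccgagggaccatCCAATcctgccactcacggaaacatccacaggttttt
In HLA-DMA, HLA-DOB and HLA-DRB1 the X stretch stood 20, 18 and 19 bases before an ATTGG. HLA-DMB shows no ATTGG, and there TGATGATG began 82 and CCAAT 22 bases before the start. Over RefSeq entries from 250 bases before to 50 after a start, CCAAT on either strand was found in 10 of the 11 class II genes with an entry, 8 of 16 class I genes and 34.6% of 35114 entries. TGATGATG, chosen after the sequences were seen, was in 4 of 11 class II genes, 0 of 16 class I genes and 0.940% of entries. TGACG was in 5 of 11 class II and 5 of 16 class I genes, against 24.6%. The interferon-stimulated response element, read as GAAA, any 2 bases and GAAA, showed the reverse split, with 9 of 16 class I genes, 0 of 11 class II genes and 3.57% of entries, and TTCNNNGAA, the interferon gamma activated site, was in 2 of 16, 1 of 11 and 7.66%. CCAAT and the interferon-stimulated element were in none of the 3 RFX promoters. These are letter matches in the reference, not sites of binding, and the lines may carry other HLA alleles.

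In DMSO, class II genes were more abundant in MINO than in JEKO or UPN-1, and JEKO had few reads of the HLA-DQ chains. Levels between genes are compared as CPM per kilobase of merged exons, given as the median and range of the 6 DMSO libraries of a line. HLA-DRA, the invariant alpha chain of HLA-DR, had the highest level of all members, at 947 (793 to 1406) for JEKO, 1587 (1238 to 3187) for MINO and 1008 (828 to 1210.5) for UPN-1. CD74, the invariant chain that guards the peptide groove, followed at 419 (380.1 to 509), 1038 (892 to 1567) and 506 (451 to 669). B2M, the light chain of class I, was next at 408 (317 to 661), 468 (377 to 824) and 324 (268 to 378). CD74 and B2M overlapped in JEKO, as did HLA-DRA and CD74 in MINO, so their order there is within the spread. The CD74 levels of MINO lay above those of both other lines in every DMSO library, whereas the ranges of JEKO and UPN-1 overlapped. At the bottom stood IFI30 in all lines, then HLA-DQA1 and HLA-DQB1 in JEKO and HLA-F, a class I chain, in UPN-1.

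**Figure D1:**
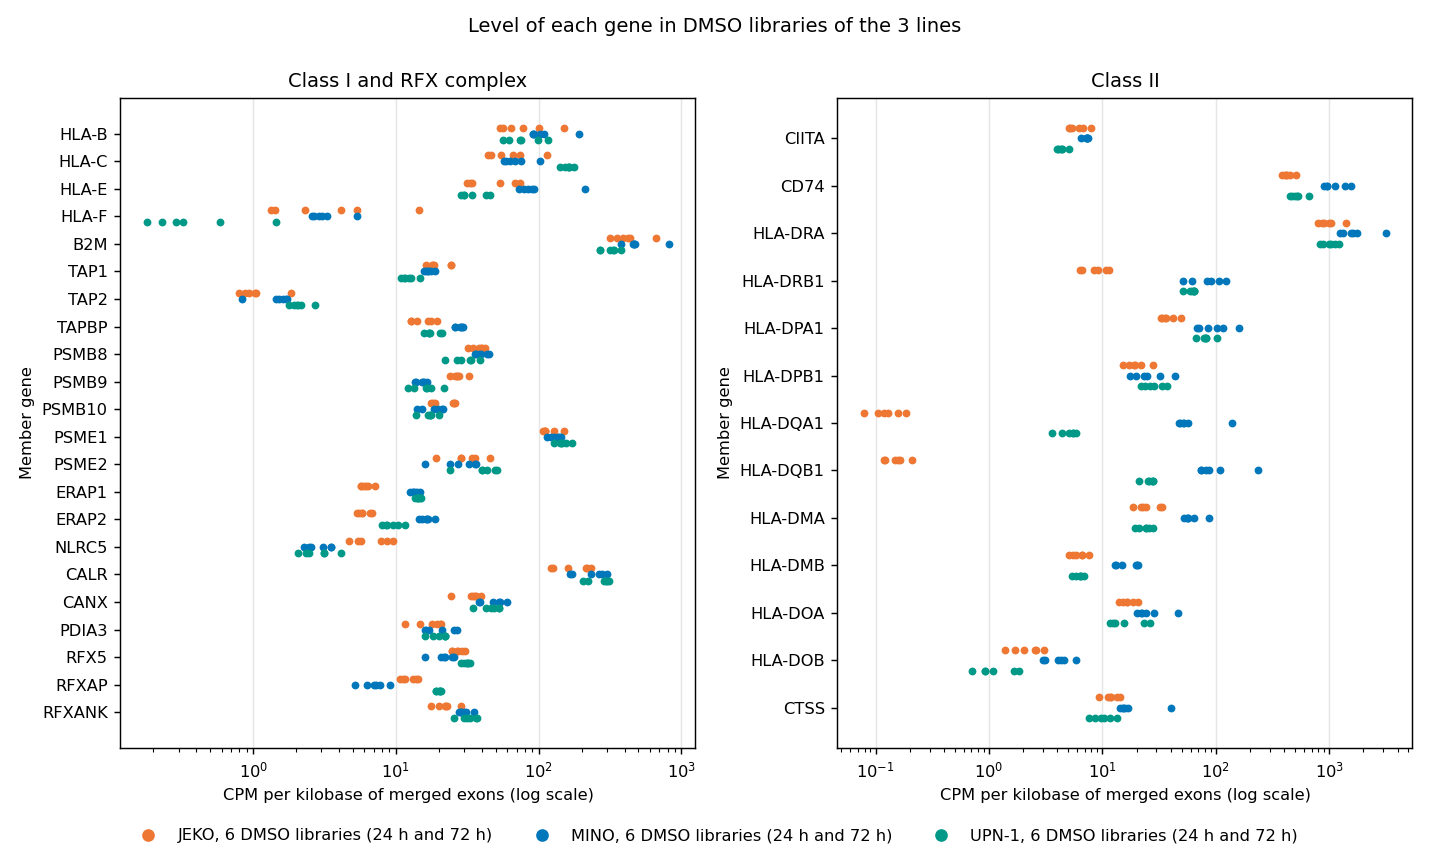
Level of each gene in the DMSO libraries of JEKO, MINO and UPN-1, as CPM per kilobase of merged exons on a log axis, with 1 point per library (24 h and 72 h together, 6 per line). Class I genes and the RFX complex are on the left, and class II genes other than IFI30 on the right; HLA-DQA1 and HLA-DQB1 lie at or below 0.210 in JEKO and at or above 47.4 in MINO.

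HLA-DQA1 and HLA-DQB1, the chains of HLA-DQ, differed most between lines. JEKO had 0.894, 0.540 and 1.08 CPM of HLA-DQA1 in the DMSO libraries at 24 h, in the order of replicates 1, 2 and 3, MINO 350.3, 364 and 391, and UPN-1 38.03, 34.7 and 30.2. HLA-DQB1 stood at 426, 397 and 528 CPM in MINO, 136, 126 and 135 in UPN-1 and 0.805, 0.771 and 0.581 in JEKO. The lines did not overlap for either gene, and the JEKO values rest on 7 to 16 counts a library. Against JEKO, MINO was higher by 8.77 (SE 0.51) log2 units for HLA-DQA1 and 9.27 (SE 0.49) for HLA-DQB1, with edgeR adjusted p = 5.73e-15 and 7.36e-16. HLA-DRB1, the variable HLA-DR beta chain, was likewise lowest in JEKO, at 20.3, 28.5 and 26.2 CPM against 277, 256 and 332 in MINO and 197, 184 and 199 in UPN-1. Near-identical copies of these genes also differed, with HLA-DQA2 at 15.6 to 30.7 CPM in the JEKO DMSO libraries and HLA-DRB5 at 151 to 209.9 CPM in those of UPN-1. How far reads of a line's own HLA alleles were lost or counted on a copy was not tested, so HLA levels between lines are uncertain.

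Over the pathway, 23 members differed between MINO and JEKO in DMSO at 24 h, where 48.0% of all genes tested did (22.0% higher in MINO and 25.9% lower). Of 13 class II genes 11 were higher in MINO, and of 19 class I genes 8 were higher and 2 lower. UPN-1 and JEKO differed in 21 members (background 44.9%, 21.2% higher and 23.8% lower), with 7 class I genes higher and 6 lower in UPN-1, 4 class II genes higher and 1 lower, and the 3 RFX genes higher. UPN-1 and MINO differed in 20 members (background 44.4%, 23.3% higher and 21.1% lower), with 10 class II genes lower and none higher in UPN-1, 7 class I genes lower and 1 higher. The per-kilobase level of CIITA, the class II coactivator, was 7.29 (6.54 to 7.41) in MINO, 5.82 (5.11 to 7.97) in JEKO and 4.29 (3.99 to 5.09) in UPN-1, so that the JEKO and MINO ranges overlapped and the UPN-1 range ended just below that of JEKO. HLA-DMB, a chain of the HLA-DM peptide editor, was 1.81 (SE 0.17) log2 units higher in MINO than in JEKO, edgeR adjusted p = 1.44e-10. Among class I genes, ERAP2, a peptide-trimming aminopeptidase, was 1.63 higher in MINO (edgeR adjusted p = 3.32e-13), and NLRC5, the class I counterpart of CIITA, was highest in JEKO at 6.79 (4.67 to 9.57) per kilobase against 2.81 (2.28 to 3.52) in MINO and 2.79 (2.05 to 4.10) in UPN-1.

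Levels in DMSO also moved with culture time. From 24 h to 72 h, 9 of the 35 members tested changed in JEKO. This was no larger a share than over all genes, of which 31.7% changed (17.1% rose and 14.6% fell). HLA-F rose by 2.25 log2 units, HLA-E by 0.99, HLA-B by 0.92, HLA-C by 0.81 and NLRC5 by 0.72, with smaller increases of HLA-DMA, TAPBP and CIITA and a change of -0.70 for the chaperone CALR (edgeR adjusted p from 0.0021 to 0.0482). In UPN-1 NLRC5 alone rose, by 0.60 (edgeR adjusted p = 0.0468; background 1.35% rising). In MINO edgeR called none of 35 (background 0.0932%). DESeq2 called 2 there, and an unadjusted p under 0.05 was seen for 6. With 1 DMSO library left out, edgeR called 4 to 8 in JEKO, lowest without replicate 3 of 24 h. In UPN-1 it called 9 without replicate 3 of 72 h and 0 without any other. These DESeq2, unadjusted and left-out counts are given without their shares over all genes. They are therefore not read as results about the members.

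Class II genes stood higher with GS716054 in MINO at 24 h. HLA-DOB rose, all 13 class II genes tested had a fold change above 0, and in 12 of 13 every treated library exceeded every DMSO library. The median effect was 0.62, against 0.01 over all genes tested. By edgeR 1 of 13 was called, where 2.39% of all genes were, and without overlap a higher level was seen for 19.9% of all genes. With the replicate block 8 of 13 were called higher, against 8.43% of all genes called higher. Fitted on the 6 libraries of this comparison alone, 11 of 13 were called higher (background 8.95%).

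**Figure D2:**
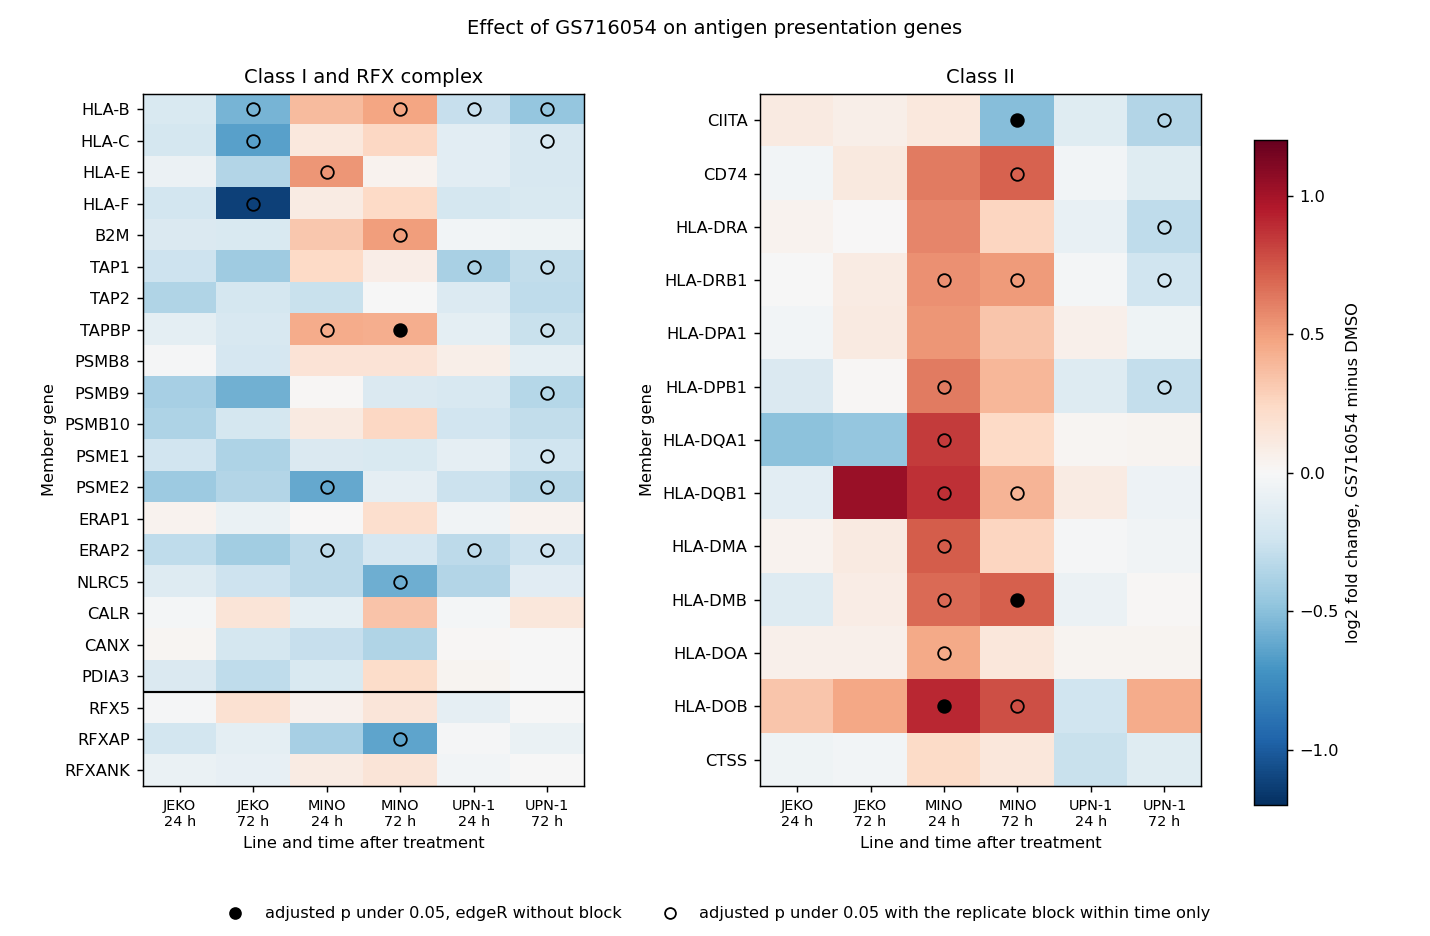
Effect of GS716054 on each member in each line and time, as the log2 fold change over DMSO (red higher, blue lower). Filled circles mark an edgeR adjusted p under 0.05 and open circles one reached only with the replicate block within time; class II genes are mostly red in MINO, with 13 of 13 above 0 at 24 h and 12 of 13 at 72 h, while most class I genes are below 0 in JEKO and UPN-1.

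Among the peptide editors, HLA-DOB had the largest effect. HLA-DOB, the beta chain of HLA-DO, which restrains HLA-DM, had 5.89, 8.56 and 6.08 CPM in DMSO and 13.5, 13.9 and 11.997 CPM with GS716054. The lowest treated library lay above the highest DMSO library, and the effect was 0.91 (SE 0.22, edgeR adjusted p = 0.0495). This call did not survive the loss of any 1 of the 6 libraries (edgeR adjusted p 0.0761 to 0.214), and 30.4% of the exon length of HLA-DOB is shared with a gene on the same strand. HLA-DMA went from 144, 143 and 161 CPM in DMSO to 223, 268 and 264. HLA-DMB went from 91.1, 92.6 and 95.5 to 126, 165 and 167 CPM. Both chains of the HLA-DM editor were thus separated between the groups, with effects of 0.72 (SE 0.19) and 0.68 (SE 0.18), but their edgeR adjusted p values were 0.0628 and 0.0657, and 0.00545 and 0.00594 with the block. HLA-DOA, the alpha chain of HLA-DO, stood at 97.5, 89.5 and 115 CPM in DMSO and 137, 145 and 139 treated, 0.45 (SE 0.30), edgeR adjusted p = 0.469 and 0.0213 with the block.

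The peptide-presenting chains had effects of like size. HLA-DQB1 had 426, 397 and 528 CPM in DMSO and 742, 851 and 938 with GS716054. HLA-DQA1 had 350.3, 364 and 391 and 593, 705 and 723 CPM. In both, the groups were far apart, with effects of 0.88 (SE 0.40) and 0.84 (SE 0.36), which edgeR did not call without the block (adjusted p = 0.271 and 0.247) and called with it (0.00393 and 0.00258). HLA-DRB1 stood at 277, 256 and 332 CPM in DMSO and 389, 453 and 445 treated. HLA-DPB1, the HLA-DP beta chain, stood at 130.4, 121 and 168 and 204, 220.0 and 237 CPM. Both were called only with the block, at 0.55 (edgeR adjusted p = 0.0181) and 0.64 (0.0331). HLA-DRA was at 1949, 1999 and 2169.7 CPM in DMSO and 2636, 3265 and 3489.6 treated, and CD74 at 5047, 4326 and 6247 and 7421, 8681 and 8376. Neither pair of groups overlapped, yet edgeR called neither gene, with effects of 0.59 (SE 0.31, adjusted p = 0.357, 0.0565 with the block) and 0.62 (SE 0.25, adjusted p = 0.22, 0.0527 with the block). HLA-DPA1, the HLA-DP alpha chain, and CTSS, a protease that trims the invariant chain, were also apart between groups, with uncalled effects of 0.53 and 0.23. CIITA was the 1 class II gene whose groups overlapped, at 167, 147 and 165 CPM in DMSO and 182, 159 and 194 treated.

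At 72 h in MINO, HLA-DMB rose and CIITA fell. By edgeR these were 2 of 13 class II genes called, where 5.56% of all genes were, and the median effect of the class was 0.34 against -0.03 over all genes. A fold change above 0 was seen in 12 of 13, but every treated library exceeded every DMSO library in 2 of 13 (background 12.4%). With the block, CD74, HLA-DRB1, HLA-DQB1, HLA-DOB and HLA-DMB were called higher (5 of 13, background 10.4%) and CIITA lower. Without DMSO replicate 2 alone, edgeR called 7 of 13 higher (background 5.70%) and CIITA lower. With both libraries numbered 2 left out, chosen after the data were seen, 10 of 13 were called higher (background 7.79%) and CIITA lower, at a median effect of 0.65. With both libraries numbered 1 or both numbered 3 left out, edgeR called 0 of 13, with the median at 0.04 without number 3, and on the 6 libraries alone it also called 0 (0.691% of all genes). The median was 0.13 without DMSO replicate 1 or 3, 0.16 without treated replicate 2, 0.58 without treated replicate 1 and 0.81 without DMSO replicate 2.

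CIITA stood at 163, 162 and 167 CPM in the DMSO libraries at 72 h and 99.4, 122 and 128 with GS716054. The 3 DMSO values lay within a few CPM of one another, and all treated values were below them. The effect was -0.51 (SE 0.13, edgeR adjusted p = 0.0347), and the call was lost without DMSO replicate 1 or 3 or treated replicate 1 (adjusted p = 0.103, 0.104 and 0.107). The call of CIITA was also lost without the filter on low counts. HLA-DMB had 68.7, 61.2 and 59.6 CPM in DMSO and 99.5, 79.4 and 136 with GS716054. Treated replicate 3 was the highest, and the lowest treated library still exceeded the highest DMSO library. The effect was 0.72 (SE 0.18, edgeR adjusted p = 0.035), and only the fit without treated replicate 2 kept the call when 1 of the 6 libraries was left out (0.00792 to 0.142).

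HLA-DOB was again separated at 72 h, with 8.997, 11.5 and 7.97 CPM in DMSO and 12.4, 18.6 and 17.7 treated, an effect of 0.77 (SE 0.21) that edgeR did not call (adjusted p = 0.0537, 0.00892 with the block). For the abundant class II chains, DMSO replicate 2 reached the treated range. HLA-DRA had 1641, 3965 and 1540.5 CPM in DMSO and 2055, 3529.5 and 3004 treated. HLA-DQB1 had 359, 1150.2 and 361 and 519, 1185 and 794 CPM. In replicates 1 and 3 both genes were higher with GS716054, whereas in replicate 2 HLA-DRA was lower and HLA-DQB1 nearly level. HLA-DRB1 went from 158, 379 and 190.1 to 244, 430.2 and 367 CPM and CD74 from 4039, 7090.2 and 4344 to 6151, 9201 and 10099, each higher in 3 of 3 pairs, with 0.57 and 0.72 with the block (edgeR adjusted p = 0.0126 and 0.026). HLA-DQA1 had 326, 958 and 329.9 CPM in DMSO and 421, 908 and 588 treated and was not called under either fit.

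**Figure D3:**
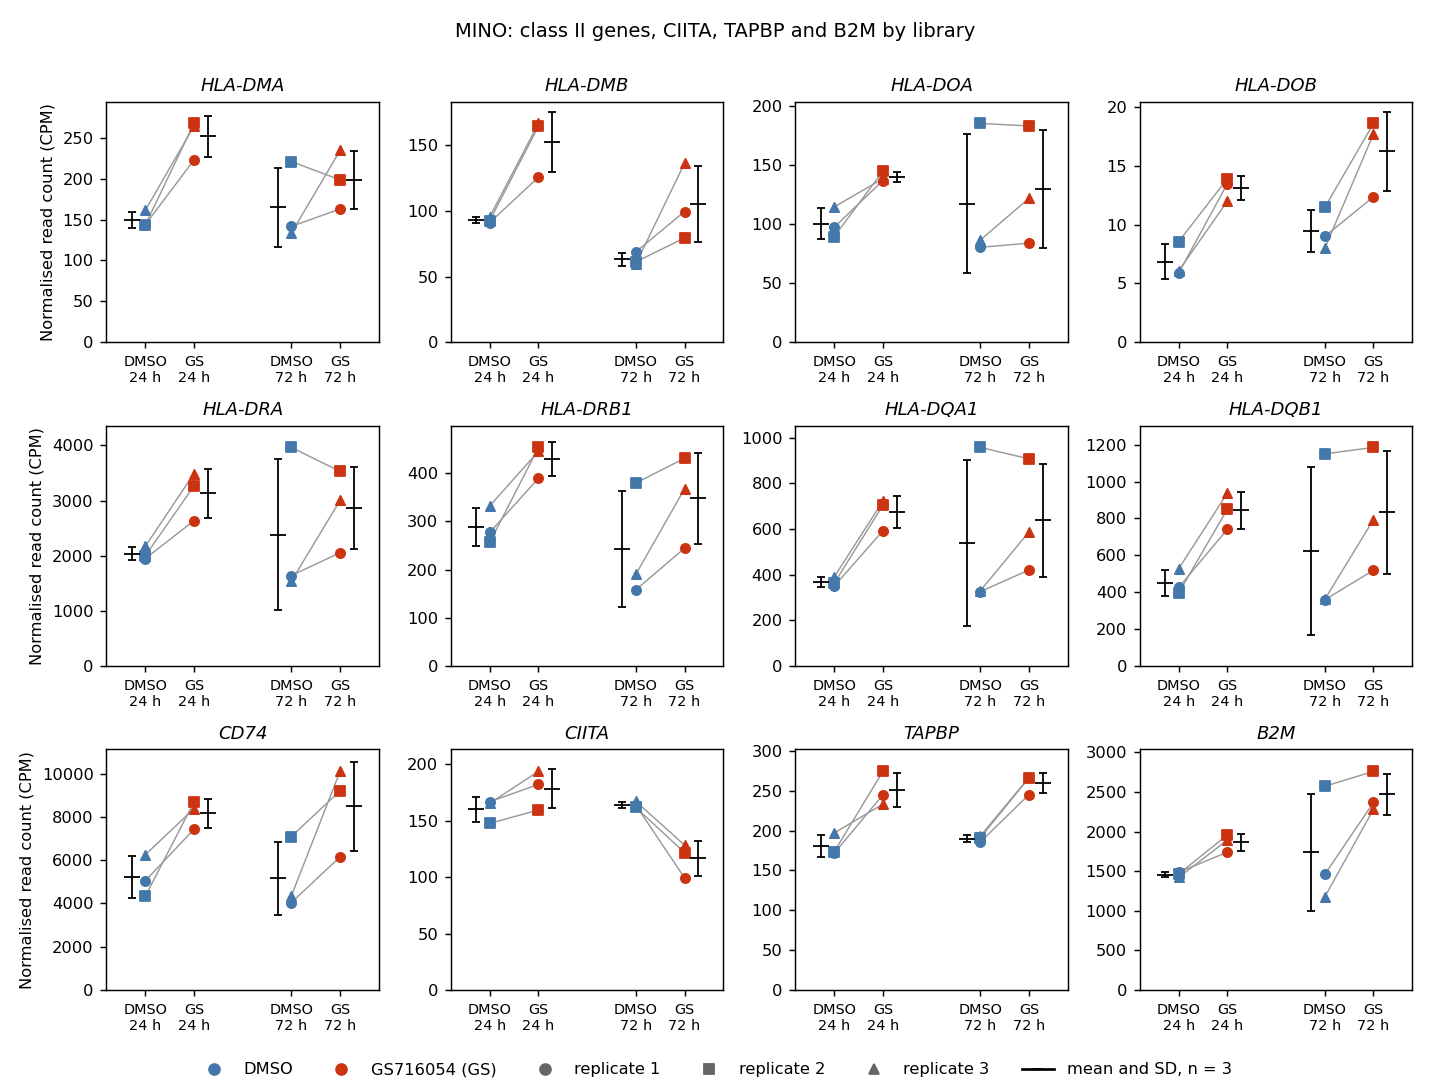
Normalised read counts (CPM) in each MINO library for 9 class II genes, CIITA, TAPBP and B2M, with DMSO in blue, GS716054 in red, lines joining libraries of the same replicate number, and black bars for the mean and SD of 3. At 24 h the treated points lie above the DMSO points for each gene but CIITA. At 72 h DMSO replicate 2 (square) lies within or above the treated range for HLA-DMA, HLA-DOA, HLA-DRA, HLA-DRB1, HLA-DQA1, HLA-DQB1, CD74 and B2M. For CIITA every DMSO point at 72 h lies above the treated points.

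B-cell genes moved in the same MINO libraries. The summed level of 6 B-cell markers was 2716 to 3308 CPM in DMSO and 4894 to 5203 CPM with GS716054 at 24 h, and 2586 to 3165 against 4280 to 5103 CPM at 72 h. MS4A1, CD79B and CD22 were called higher at 24 h and MS4A1 and CD79A at 72 h. Of other cell types, T-cell markers went from 5.55 to 7.28 CPM in DMSO to 10.8 to 22.1 CPM at 24 h, mostly CD8A, with CD3D and CD2 at 0 in every MINO library. Monocyte markers summed to 1.54 to 3.06 CPM in DMSO and 5.66 to 8.57 CPM treated at 24 h, and 0.538 to 1.24 against 1.77 to 4.17 CPM at 72 h. Dendritic cell markers summed to 0.440 to 0.942 against 0.902 to 3.52 CPM at 24 h and 1.71 to 3.01 against 3.06 to 3.22 CPM at 72 h. With the block edgeR called the monocyte markers LYZ and ITGAM higher at both times and the dendritic marker CLEC4C at 24 h. Plasma cell markers summed to 308 to 368 CPM in DMSO and 246 to 283 treated at 24 h, and 387 to 532 against 266 to 295 CPM at 72 h, with XBP1 and MZB1 called lower with the block at both times. The part of these changes in the class II values was not tested.

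In JEKO and UPN-1, edgeR called no class II gene at either time. In JEKO, 0 of 13 were called at 24 h (background 0.0180%) and 0 of 13 at 72 h (background 0.300%). DESeq2 also called none, against 0.0864% and 0.669% of the 31262 genes with a read. None had an unadjusted p under 0.05, against 662 and 1438 of all 16690 genes. The median effects were -0.04 and 0.08, and with 1 library left out they ran from -0.10 to 0.09 and from -0.03 to 0.17. HLA-DRA in JEKO was 1289, 1749 and 1085 CPM in DMSO at 72 h and 1175, 1818 and 1143 treated, CD74 2047, 2305 and 1908 and 2347, 2653 and 1791, and CIITA 141, 179.6 and 153 and 197, 161 and 139.6. The groups overlapped for each of these, and for all 13 genes at both times, where 7.03% and 6.51% of all genes lay wholly above DMSO and 5.51% and 4.81% wholly below. In UPN-1, 0 of 13 were called at 24 h (background 0.0262%) and at 72 h (background 0.334%). DESeq2 called none there (0.0592% and 0.463% of the 28698 genes with a read). An unadjusted p under 0.05 was seen for 0 and 1 of 13, and for 577 and 1130 of all 15248 genes. The median effects were -0.03 and -0.06, and with 1 library left out they ran from -0.08 to 0.00 and from -0.23 to 0.09.

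With the replicate block, 4 class II genes were lower in UPN-1 at 72 h, where 3.29% of all genes were called lower, and none at 24 h. CIITA had 98.4, 115 and 89.9 CPM in DMSO and 79.3, 76.7 and 79.3 treated, with every treated library below every DMSO library. HLA-DRA had 1506, 1405 and 1029.7 and 1228, 1253 and 662 CPM, and HLA-DPB1 193, 176 and 115 and 163, 144 and 85.6. These overlapped between groups, but each treated library was below the DMSO library of its number. With the block, the effects were -0.34 (SE 0.07, edgeR adjusted p = 0.00488) for CIITA, -0.35 (SE 0.07, 0.00557) for HLA-DRA, -0.30 (0.00578) for HLA-DPB1 and -0.25 (0.0182) for HLA-DRB1, which stood at 199.7, 189.8 and 159 CPM in DMSO and 172, 168 and 119.7 treated. Without the block their adjusted p values were 0.29, 0.894, 0.905 and 0.816. UPN-1 DMSO replicate 3 at 72 h lay below both other DMSO libraries for 13 of 13 class II genes, as did treated replicate 3 among the treated for 12 of 13.

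Class I genes in MINO did not move as one class. The median effect of the 19 genes was 0.02 at 24 h (-0.08 to 0.06 with 1 library left out) and 0.17 at 72 h (0.10 without treated replicate 3). At 24 h edgeR called none and DESeq2 1 (3.30% of the 27323 genes with a read). The block called 2 higher and 2 lower (all genes 8.43% higher and 7.36% lower). An unadjusted p under 0.05 was seen for 3 of 19, and for 2666 of all 15028 genes. Fitted on the 6 libraries of 24 h alone, edgeR called B2M, HLA-E, TAPBP and HLA-B higher and PSME2, CANX and ERAP2 lower. These were 4 and 3 of 19, where 8.95% and 9.20% of all genes were called. At 72 h TAPBP was the 1 gene of 19 called, where 5.56% of all genes were. With the block 3 were higher and 1 lower (10.4% and 9.80%). Every treated library exceeded every DMSO library for 6 genes at 24 h and 3 at 72 h (background 19.9% and 12.4%), and at 24 h lay below for 4 (15.2%). TAPBP, or tapasin, which bridges class I chains to the peptide transporter, had 172, 174 and 197 CPM in DMSO and 245, 274 and 233 with GS716054 at 24 h. At 72 h it had 186, 191 and 193 and 245, 266 and 267 CPM. The groups were apart at both times, and DMSO replicate 2 did not stand out for this gene. The effect was 0.44 (SE 0.11) at either time, with edgeR adjusted p = 0.061 and 0.0419. When 1 of the 6 libraries was left out, the 72 h call held only without DMSO replicate 2 (0.0428 to 0.133). Without the filter on low counts this call was lost as well.

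Of the chains themselves in MINO, HLA-E, a class I molecule read by NK cells, had 244, 212 and 271 CPM in DMSO and 357, 353 and 362 treated at 24 h. HLA-B, a classical heavy chain, had 425, 887 and 420.1 and 733, 851 and 831 CPM at 72 h, and B2M 1459.6, 2571 and 1176 and 2368, 2759 and 2281. HLA-E was separated, while for HLA-B and B2M at 72 h DMSO replicate 2 reached the treated range. Their edgeR adjusted p values were 0.433, 0.266 and 0.227, and with the block the effects of 0.54, 0.56 and 0.57 were called (0.00998, 0.0382 and 0.0299). Other class I genes were lower. PSME2, a subunit of the PA28 proteasome activator, had 116, 129 and 130.3 CPM in DMSO and 76.9, 75.4 and 97.6 at 24 h, and ERAP2 130.3, 113 and 116 and 105, 95.9 and 93.9. The groups were apart for both, with block effects of -0.62 (edgeR adjusted p = 0.00339) and -0.31 (0.044), against 0.257 and 0.174 without the block. NLRC5 at 72 h stood at 43.1, 28.3 and 43.6 CPM in DMSO and 32.9, 17.4 and 27.2 treated. It was lower in 3 of 3 pairs, -0.60 with the block (edgeR adjusted p = 0.00769; 0.171 without it).

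In JEKO most class I genes lay below DMSO, and edgeR without the block called none. At 24 h 17 of 19 had a fold change below 0, at a median of -0.18 against -0.01 over all genes. An unadjusted p under 0.05 was seen for 1 of 19, and for 662 of all 16690 genes. Treated replicate 2 lay below both other treated libraries for 13 of 19 genes, and without it the median was -0.06, while without DMSO replicate 1 it was -0.11 and without treated replicate 1 it was -0.31. At 72 h 18 of 19 were below 0, at a median of -0.30 against 0.00. An unadjusted p under 0.05 was seen for 6 of 19, and for 1438 of all 16690 genes. DESeq2 called none at either time. In 4 genes at 24 h and 6 at 72 h every treated library was below every DMSO library (background 5.51% and 4.81%). With the block, HLA-B, HLA-C and HLA-F fell at 72 h, 3 of 19 against 1.44% of all genes called lower. HLA-F had 62.4, 17.8 and 22.9 CPM in DMSO and 26.8, 9.32 and 11.5 treated. HLA-C had 286, 185 and 165 and 159, 141 and 107 CPM, and HLA-B 699, 463 and 361 and 409, 372 and 251. Replicate 1 was the highest of each group in all of these, and the groups were apart for HLA-C alone. The block effects were -1.06 (SE 0.14, edgeR adjusted p = 0.00277), -0.62 (SE 0.12, 0.0187) and -0.53 (SE 0.13, 0.0456), against adjusted p = 0.486, 0.344 and 0.545 without it.

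DMSO replicate 1 of JEKO at 72 h lay above both other DMSO libraries for 17 of 19 class I genes, and without it the class median was -0.19. Genes apart from the DMSO range in JEKO at 72 h also included ERAP2, at 47.2, 40.3 and 45.9 CPM in DMSO and 35.9, 31.9 and 31.6 treated, and PSMB9, an immunoproteasome subunit, at 109, 80.1 and 89.4 and 55.1, 65.7 and 66.02. Neither passed, with effects of -0.42 (SE 0.13) and -0.57 (SE 0.24) and edgeR adjusted p = 0.27 and 0.518 (0.0518 and 0.2 with the block). B2M was 2064, 1354 and 1113 CPM in DMSO and 1519.9, 1451 and 1012 treated, with overlapping groups.

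**Figure D4:**
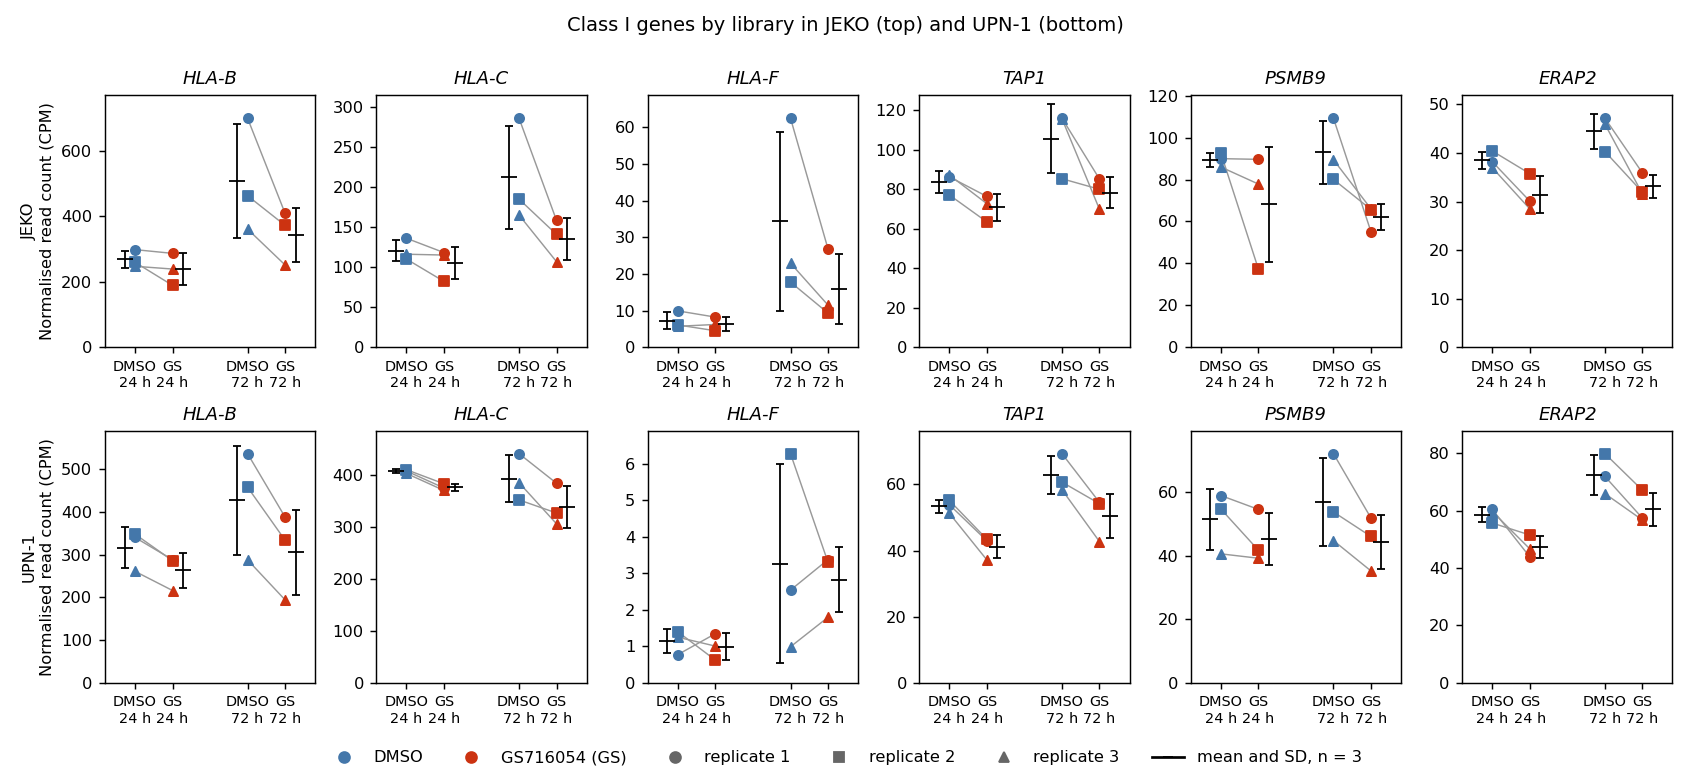
Normalised read counts (CPM) of 6 class I genes in each JEKO library (top) and UPN-1 library (bottom), with DMSO in blue, GS716054 in red, lines joining libraries of the same replicate number, and black bars for the mean and SD of 3. At 72 h each line from DMSO to GS716054 runs downward for HLA-B, HLA-C, TAP1, PSMB9 and ERAP2 in both cell lines, while HLA-F in UPN-1 stays at or below 6.27 CPM and has no common direction.

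In UPN-1 too, most class I genes lay below DMSO. At 24 h 16 of 19 and at 72 h 17 of 19 had a fold change below 0, at medians of -0.13 and -0.20 against 0.00 over all genes. Without the block edgeR and DESeq2 called none. An unadjusted p under 0.05 was seen for 3 of 19 at each time, and for 577 and 1130 of all 15248 genes. Every treated library was below every DMSO library for 4 genes at 24 h and 3 at 72 h (background 6.96% and 3.79%). With the block 3 of 19 fell at 24 h, HLA-B, TAP1 and ERAP2, and 8 of 19 at 72 h, where 0.577% and 3.29% of all genes were called lower.

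HLA-B in UPN-1 had 536, 458 and 288 CPM in DMSO at 72 h and 388, 334 and 194 with GS716054. TAP1, a chain of the peptide transporter, had 53.9, 55.1 and 51.2 and 42.9, 43.4 and 37.1 CPM at 24 h and 69.3, 60.7 and 58.4 and 54.6, 54.2 and 42.7 at 72 h. ERAP2 had 60.4, 55.7 and 59.7 and 43.8, 51.5 and 46.6 CPM at 24 h. TAP1 was separated at both times and ERAP2 at 24 h, whereas HLA-B spread widely between replicates, with replicate 3 lowest in both groups. The block effect of HLA-B at 72 h was -0.48 (SE 0.06, edgeR adjusted p = 1.75e-05), against 0.753 without the block. For TAP1 the block effects were -0.39 and -0.30 at the 2 times (SE 0.08 and 0.08), with edgeR adjusted p = 0.0158 and 0.017, against 0.925 and 0.575 without it.

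The others that fell at 72 h with the block were TAPBP, HLA-C, ERAP2, PSMB9 and the PA28 subunits PSME1 and PSME2. TAPBP had 136, 139 and 115 CPM in DMSO and 111, 111 and 98.9 treated, and HLA-C 441, 352 and 385 and 384, 326 and 306. PSMB9 had 72.2, 53.8 and 44.8 and 51.9, 46.1 and 35.2 CPM, PSME1 305, 249.7 and 260.0 and 263, 237 and 183, and PSME2 143, 86.2 and 143 and 116, 81.5 and 94.4. TAPBP alone of these was separated. Each was lower in 3 of 3 pairs, but these pairs are what the block tests. Their block effects ran from -0.34 for PSMB9 to -0.20 for HLA-C, with edgeR adjusted p from 0.0106 to 0.0487 with the block and 0.568 to 0.856 without it. B2M was 1180.4, 1028 and 837 CPM in DMSO and 1109.7, 1106 and 687 treated, and NLRC5 38.5, 50.8 and 38.6 and 42.3, 34.7 and 38.2; neither passed either fit. The fits of 12 libraries, with or without the block, called no effect of GS716054 on PSMB8, PSMB10, TAP2, ERAP1, CALR, CANX or PDIA3. PSMB8 and PSMB10 are immunoproteasome catalytic subunits, and CALR, CANX and PDIA3 are chaperones. Effects on these genes ran from -0.37 to 0.34.

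The RFX complex, which CIITA and NLRC5 both need at their targets, showed 1 call in the 6 comparisons, and that with the block. It came in MINO at 72 h, where the block called 9.80% of all genes lower and 20.2% in either direction. RFXAP in MINO at 72 h had 16.7, 11.996 and 20.9 CPM in DMSO and 15.4, 4.99 and 12.03 with GS716054, lowest in replicate 2 of each group, and fell, with a block effect of -0.70 (edgeR adjusted p = 0.0212; 0.277 without it). RFX5 and RFXANK were not called. RFX5 in MINO at 72 h had 94.5, 72.7 and 98.9 CPM in DMSO and 107, 82.9 and 108 treated.

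Other genes of the pathway were read as a list of 42, made up of proteasome and loading factors, enzymes of the class II compartment, and regulators. In JEKO edgeR called none of 41 tested at 24 h and 1 at 72 h (0.300% of all genes), PRDM1, a repressor of CIITA, which was 1.34 (SE 0.23) higher, from a mean of 3.64 to 9.23 CPM (adjusted p = 0.0225). In MINO 1 of 40 was called at 24 h, against 2.39% of all genes. This was STAT2, which carries type I interferon signals, at 0.70 (SE 0.14, edgeR adjusted p = 0.0274). At 72 h the kinase JAK1 was called there, at 0.81 (SE 0.20, edgeR adjusted p = 0.0342). In UPN-1 none of 40 was called at either time. With the block, 10 of the list were higher and 1 lower in MINO at 24 h, where 8.43% and 7.36% of all genes were, and 8 and 2 at 72 h (10.4% and 9.80%). It called 2 higher and 3 lower in JEKO at 72 h (1.89% and 1.44%) and 3 and 2 in UPN-1 at 72 h (4.18% and 3.29%), and none in JEKO or UPN-1 at 24 h (0.0899% of all genes in JEKO, 0.918% higher and 0.577% lower in UPN-1). The list's median effect lay between -0.11 in JEKO at 72 h and 0.23 in MINO at 24 h.

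Whether GS716054 acted differently in the lines was tested directly, with libraries of all lines in 1 fit. At 72 h TAPBP differed among the lines (edgeR adjusted p = 0.0283), 1 of 35 members where 1.01% of all genes did. Its effects were 0.44 in MINO, -0.19 in JEKO and -0.27 in UPN-1. In JEKO it had 129, 112 and 116 CPM in DMSO and 122, 109 and 81.8 treated, and it was MINO that rose while the other 2 lines had fold changes below 0. Leaving out 1 library moved the edgeR adjusted p of TAPBP between 0.01 and 0.097. Without MINO DMSO replicate 2, 3 members differed, a count given without its share over all genes. With the block 10 of 35 differed at 72 h, where 9.78% of all genes did. These were HLA-B, HLA-C, HLA-F, B2M and TAPBP of class I and CIITA, CD74, HLA-DRB1, HLA-DQB1 and HLA-DMB of class II. At 24 h edgeR without the block found none of 35 (background 0.106%). An unadjusted p under 0.05 was seen for 5, a count given without its share over all genes. With the block 8 of 35 differed (background 5.74%), 3 of class I and 5 of class II. No member's effect differed between 72 h and 24 h in any line by edgeR or DESeq2. By edgeR this was 0 of 35 in each (background 0.0133% in MINO and 0% in JEKO and UPN-1). An unadjusted p under 0.05 was seen for 0, 1 and 0 in JEKO, MINO and UPN-1, counts given without their shares over all genes. The comparisons within a line at the 2 times share no library, while each line stands for itself alone.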

How the data were processed

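Gene expression was measured by RNA sequencing in 36 libraries of JEKO, MINO and UPN-1 cells. The authors deposited a table of whole-number read counts per library, and the submitters' processing notes name HISAT2 2.2.1, HTSeq 0.13.5 and GRCh38. The sources used here do not state the annotation release or the strand setting. Of the members, 18 share exons with a gene on the opposite strand and 11 with one on the same strand. Summary lines held 56.2% of all reads and were left out.

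Gene IDs were named with GENCODE v44 (57532 of 58302 found), and 30 of 36 members had a RefSeq promoter entry, that with the lowest start where there were several. Counts were fitted per line (12 libraries, 4 group means, 8 residual degrees of freedom) with edgeR 4.0.16 in R 4.3.3 (quasi-likelihood F test, TMM), on the 16690, 15028 and 15248 genes of JEKO, MINO and UPN-1 kept by filterByExpr (minimum count 10, minimum total 15). Differences among lines and DMSO levels at 24 h came from a fit of 36 libraries (17980 genes, 24 residual degrees of freedom). P-values were adjusted by Benjamini-Hochberg over all genes tested, and each SE was taken as the absolute log2 fold change over the root of F. The fits were also run on simulated counts. These had no effect shared by libraries of the same number, so they do not test the block on paired libraries.

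Replicate numbers come from the labels, which tie no number to a batch. Deviations from group means of libraries with the same number correlated within a time at 0.0552 to 0.213 in JEKO at 24 h, 0.291 to 0.593 in JEKO at 72 h, 0.130 to 0.269 and 0.287 to 0.551 in MINO, and 0.107 to 0.239 and 0.483 to 0.581 in UPN-1. DMSO libraries correlated best with the treated library of their number in 3 of 3 cases, but 2 of 3 in MINO at 72 h. Pairing was accepted where every value was over 0.1, and across times (-0.142 to 0.303) it was not. The block within a time was therefore added after this check, and leaving out both libraries of a number after MINO replicate 2 was seen to stand apart. P-values measure the spread between these cultures. For genes called with the block, agreement of the pairs is not separate support, since the block tests differences within a number.

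Alternatives were DESeq2 1.42.0 and its size factors, other count filters, replicate blocks, other sets of libraries in the fit, and leaving out libraries. Shares called by DESeq2 are over every gene with a read in the line, a larger set than the filtered genes behind the edgeR shares. They cannot be set against the edgeR shares. Members called under the main test or a replicate block, and CIITA, NLRC5, B2M, CD74 and HLA-DRA, are given by library, and other members by counts and ranges. Other genes of the pathway are named where the main test called them, except for 1 result that is not reported here. The members and lists were chosen with earlier results of these data known. Figures were drawn with matplotlib 3.10.9.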

Additional observations from a re-analysis of the deposited data

Results flagged for a closer look

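TAPBP is listed because its response to GS716054 differed among the lines at 72 h by a direct test of that difference (edgeR adjusted p = 0.0283, 36 libraries). Its log2 fold change was 0.44 in MINO, where 3 of 3 pairs were higher, -0.19 in JEKO and -0.27 in UPN-1, where 3 of 3 pairs were lower. Leaving out 1 library at a time moved the adjusted p between 0.01 and 0.097.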

How the results depend on the processing

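No called gene reversed its direction. Class medians near 0 changed sign: class II in JEKO reached 0.12 at 24 h without both libraries numbered 2 and -0.03 at 72 h without DMSO replicate 3, class I in MINO at 24 h -0.08 without treated replicate 3, and class II in UPN-1 0.0049 at 24 h and 0.09 at 72 h without treated replicate 3. Under the alternatives 1182 values kept their side of the threshold, 90 passed it and 111 no longer did. Counts below are of members called, and the share of all genes called changed with the setting too. In MINO at 24 h this share was 2.39% in the main fit and 15.8% with the block within a time. It was 18.2% on the 6 libraries alone and 0.0196% without both libraries numbered 2. At 72 h the same fits called 5.56%, 20.2%, 0.691% and 14.4%. Counts given below without a share are therefore not read as results about the members.

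The replicate block within a time gave 3 class I genes in JEKO at 72 h; 4 class I and 8 class II in MINO at 24 h; 4 class I, 6 class II and 1 RFX gene in MINO at 72 h; 3 class I in UPN-1 at 24 h and 8 class I and 4 class II at 72 h; and 8 and 10 members that differed among lines at 24 h and 72 h, against 0 and 1. It changed no other count of treatment effects or of their change with time, and it was not fitted for DMSO culture or DMSO levels. The replicate block across times gave 1 class I gene in JEKO at 72 h, 1 class I and 3 class II in MINO at 24 h, 2 and 6 members that changed in MINO and UPN-1 DMSO culture, and 1 and 2 that differed among lines.

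Without a filter the counts were 2 for class I in JEKO at 72 h, 1 and 6 for class I and II in MINO at 24 h, 6 and 5 in MINO and UPN-1 culture, and 1 and 2 among lines. In MINO at 72 h TAPBP and CIITA were then not called. The calls there were NLRC5, lower, and CD74, HLA-DOB and HLA-DMB, all higher. For class II in MINO at 72 h, 2 higher and 1 lower were called with a minimum count of 50, with all 36 libraries and with the block across times. A minimum count of 50 gave 1 and 2 in MINO at 24 h, and DESeq2 gave 1 and 3 there, 4 for class II at 72 h and 2 for MINO culture. DESeq2 size factors in edgeR gave 0 for class II in MINO at 24 h. A fit of all 36 libraries gave 1 and 3 in MINO at 24 h. The 6 libraries alone gave 7 and 11 there and 0 and 0 at 72 h.

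Leaving out both libraries numbered 1, 2 or 3 gave 0, 6 and 0 class I and 0, 11 and 0 class II genes in MINO at 72 h, and 0 class II genes at 24 h each time. Without 1 library, class II in MINO gave 0 at 24 h. At 72 h class I gave 0 to 5 and class II 0 to 8, both highest without DMSO replicate 2, when CIITA stayed among the genes called. JEKO culture gave 4 to 8, lowest without DMSO replicate 3 of 24 h, UPN-1 culture 0 to 9, highest without DMSO replicate 3 of 72 h, and the difference among lines at 72 h 0 to 3.

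With 3 libraries per group, a p that missed the threshold does not show that levels did not differ. HLA-DQA1 and HLA-DQB1 in JEKO and HLA-F in UPN-1 rest on few counts, and IFI30 on too few to test.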
